A study of Mus musculus with 15 samples.

Results

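Gene expression after 15 days of withdrawal was compared between mice that had self-administered cocaine and mice that had self-administered saline. The comparison covers the cells of the deposited table marked adult and 15 days of withdrawal, 12919 of the 35360 cells of the series: 6623 cells in cocaine libraries 9 and 10 and 6296 cells in saline libraries 11 and 12. All were male C57BL/6N mice, given as 8 to 10 weeks of age in the labels, that pressed a lever for intravenous cocaine or saline through a 15-day maintenance phase, after which self-administration ended. Each library was made from the pooled prefrontal cortex (PFC) of 2 mice, so the replicates are 2 libraries per group. The p-values of genes rest on the spread between libraries within a group, estimated over the adult libraries of all 6 groups. The labels do not say on which days tissue was taken or libraries were made. One label field names the nucleus accumbens as the tissue whereas the sample titles and the methods name the PFC. At 15 days, excitatory neurons made up 55.5% to 73.8% of the cells of a library, and the summed level of 8 markers of striatal projection neurons in inhibitory neurons was between 107 and 345 CPM (UMIs of a gene per 1000000 UMIs of the class in a library).

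The PFC sends excitatory projections to the nucleus accumbens and receives dopamine from the midbrain, and this circuit is known for its part in craving and relapse after drug use. Its excitatory neurons release glutamate, its inhibitory neurons release GABA, and astrocytes, oligodendrocytes, microglia and endothelial cells make up most of the rest. Withdrawal from self-administered cocaine is a standard model of abstinence in rodents. The question addressed here is which genes differed between the groups in each class of cells, and how far that difference depended on a single library.

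The 4 libraries held the most UMIs of the adult series. Their retained cells held between 27704573 and 42892922 unique molecular identifiers (UMIs, each standing for 1 captured mRNA molecule), against 8375172 to 20336658 in the 8 libraries of maintenance and 48 h of withdrawal. The median cell held between 8771.5 UMIs (library 12) and 11334.5 UMIs (library 10), against 3426 to 10962 UMIs in the 8 earlier libraries, and mitochondrial genes gave 2.57% to 2.92% of UMIs. The deposited matrices of libraries 9, 10, 11 and 12 list 4675, 3693, 5079 and 4002 barcodes. Those retained as cells held 82.0%, 82.9%, 78.8% and 74.3% of the UMIs of these listed barcodes. Between 8 and 21 retained barcodes were shared by any pair of these libraries. Counts of each class, as the authors assigned it, were added up within a library. Markers of the other classes were low in excitatory neurons beside their own class, with 452 to 562 CPM for 8 genes of astrocytes against 18057 to 21751 CPM in astrocytes, and with 81.4 to 112 CPM for 7 genes of mature oligodendrocytes against 33227 to 39192 CPM in mature oligodendrocytes themselves.

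Excitatory neurons, with 8730 cells, had 93 genes that rose with cocaine, led by Ccdc85b, Ap4s1 and Zfp593 among the genes named by rule. Of 13171 genes tested, 93 rose with cocaine and 0 fell by edgeR's quasi-likelihood test (0.706% called, each with an adjusted p below 0.05 after Benjamini-Hochberg correction and more than 1.5-fold apart). At an unadjusted p below 0.05 there were 903 genes, 743 of them higher with cocaine, and DESeq2 called 163 rises and 0 falls. With no filter on low counts edgeR called 344 rises and 37 falls. The rises lay between 0.61 and 2.22 on the log2 scale with a median of 0.96, beside a median of -0.01 over all genes tested. The 93 genes together took 10567 and 9439 CPM in cocaine libraries 9 and 10, 4660 CPM in saline library 11 and 6564 CPM in saline library 12, and 4557 to 5605 CPM in the 8 libraries of the earlier times.

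The saline libraries differed from each other in the same direction as the groups. Library 12 lay above library 11 for 93 of the 93 rises, against 46.1% of all genes tested, and the median gene stood 31.6% of the way from library 11 to the cocaine mean. Library 11 lay within the range of the 8 earlier libraries for 80 of the 93 genes, while library 12 lay above all 8 for 65. Both cocaine libraries lay above the other 10 adult libraries for 92 of the 93 genes, against 6.47% of all genes tested. When library 11 or library 9 was left out, 0 genes were called (459 and 548 genes at an unadjusted p below 0.05). Without library 10 the count was 16, and without library 12 it was 387, with all 93 genes among them. The labels give no preparation date or other detail that sets library 12 apart, so a difference in its preparation or in its material cannot be told apart from a difference between mice, and this bears on each value of cocaine minus saline given here. The direction of the 93 genes was the same in each of these fits, in which the remaining library of the group was assumed to vary like the other groups.

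**Figure D1:**
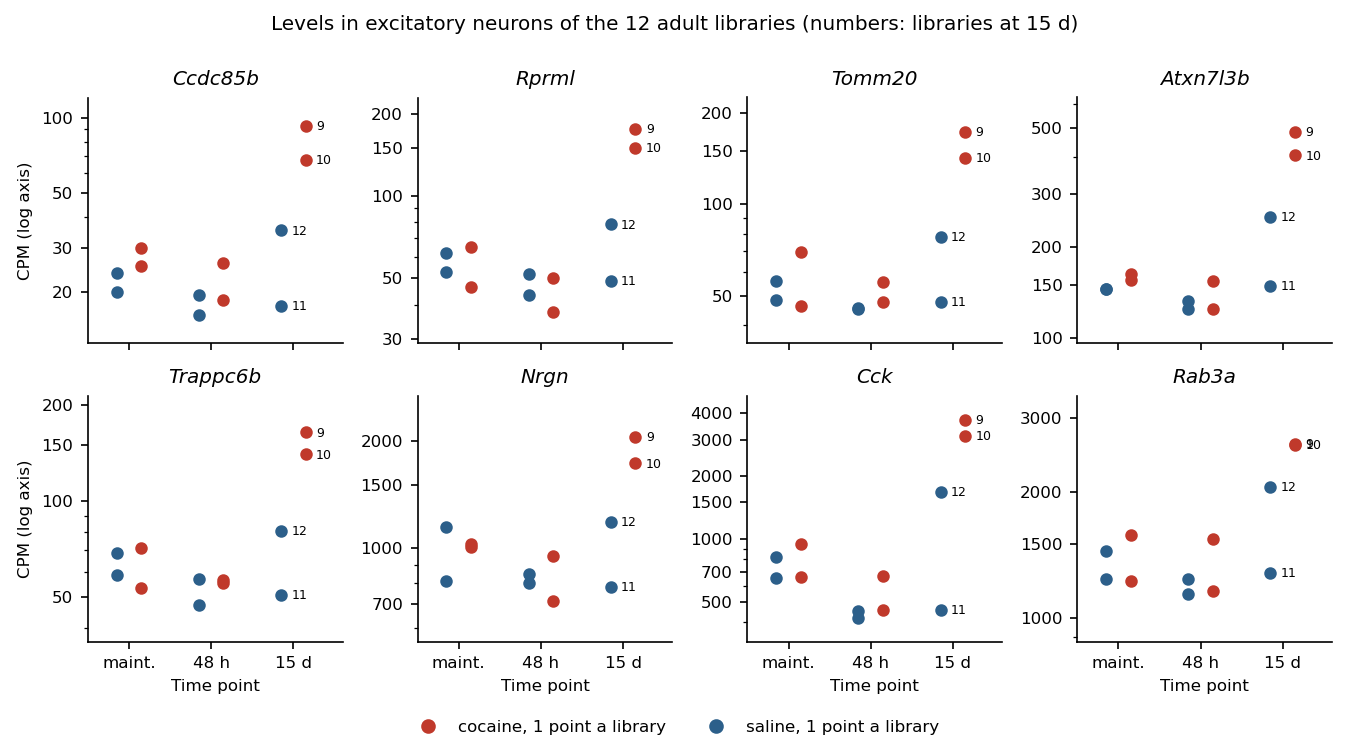
Levels of 8 genes in excitatory neurons in each of the 12 adult libraries, in CPM on a log axis, with 1 point per library. Cocaine libraries 9 and 10 are highest for the genes that rose, and saline library 12 lies between them and saline library 11, for example 35.3 CPM against 17.5 CPM for Ccdc85b.

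The largest rise among the genes named by rule was that of Ccdc85b, which encodes a coiled-coil protein and lies on chromosome 19 from 5453163 to 5457549 on the minus strand (NCBIM37). It was at 92.7 and 67.7 CPM in cocaine libraries 9 and 10 and at 17.5 and 35.3 CPM in saline libraries 11 and 12, a log2 change of 1.66 ± 0.30 (SE, edgeR adjusted p = 0.042). Saline library 12 was above the 16.2 to 30.1 CPM of the 8 earlier libraries, and the cocaine libraries lay clear of all of them. Rprml, a relative of the cell cycle regulator reprimo on chromosome 11 from 103510823 to 103511894 (plus strand), was at 176, 150, 49.1 and 78.6 CPM in libraries 9, 10, 11 and 12 and rose by 1.40 ± 0.23 (adjusted p = 0.022). Tomm20, a receptor for protein import in the outer mitochondrial membrane on chromosome 8 from 129458043 to 129469723 (minus strand), was at 173, 143, 47.7 and 78.1 CPM and rose by 1.38 ± 0.24 (adjusted p = 0.028). For both genes both cocaine libraries lay above both saline libraries, which the rule for named genes requires. Over all genes tested 12.5% had this order and 31.5% the reverse. Library 12 stood above the 8 earlier libraries for both genes. Tomm20 has processed copies elsewhere in the genome, and how their reads were divided was not examined here.

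Amn (2.22) and Npw (1.95) rose more than Ccdc85b but were below the rule's 10 CPM, with cocaine means of 7.52 and 1.77 CPM. The other 7 of the 10 largest rises by rule had log2 changes between 1.38 and 1.55. They were the adaptor complex AP-4 subunit Ap4s1, the mitochondrial ribosomal protein Mrps34, the histone variant H2afx, the orphan receptor Gpr25, Zfp593, Kti12 and 2410004B18Rik. Mrps34 was the most abundant of these, at 96.4 and 86.3 CPM with cocaine and 24.0 and 44.5 CPM with saline. Ap4s1 was at 29.8 and 22.8 CPM with cocaine and 6.34 and 12.5 CPM with saline, and H2afx at 36.1 and 29.1 CPM against 7.63 and 17.2 CPM. In all 7 genes the 4 libraries kept the order of Ccdc85b for saline, with library 12 above library 11.

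Promoters are shown for the 3 genes that rose in the most clusters of excitatory neurons and were also among the 10 largest rises by rule. Shared regulation of these genes was not tested. Each holds 300 bases, from 250 before to 50 after the RefSeq start, written 5′ to 3′ on the strand of the gene in build GRCm38.p6, which is not the build of the counts. Capitals mark GGGCGG on either strand (read as CCGCCC on the other one), the core letters of a GC box.
Ccdc85b chr19:5457514-5457813, minus strand: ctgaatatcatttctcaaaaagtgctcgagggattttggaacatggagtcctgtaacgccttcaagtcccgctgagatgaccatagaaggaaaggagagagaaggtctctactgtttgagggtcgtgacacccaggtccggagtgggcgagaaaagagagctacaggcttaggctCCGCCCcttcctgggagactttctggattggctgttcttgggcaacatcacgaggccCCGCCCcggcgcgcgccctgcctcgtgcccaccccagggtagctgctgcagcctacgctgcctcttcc
Rprml chr11:103649259-103649558, plus strand: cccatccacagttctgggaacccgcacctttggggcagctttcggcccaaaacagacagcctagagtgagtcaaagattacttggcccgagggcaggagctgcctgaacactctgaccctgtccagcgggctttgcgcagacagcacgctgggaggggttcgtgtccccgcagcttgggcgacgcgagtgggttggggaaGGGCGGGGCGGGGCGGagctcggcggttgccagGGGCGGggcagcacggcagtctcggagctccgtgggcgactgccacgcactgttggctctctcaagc
Tomm20 chr8:126945872-126946171, minus strand: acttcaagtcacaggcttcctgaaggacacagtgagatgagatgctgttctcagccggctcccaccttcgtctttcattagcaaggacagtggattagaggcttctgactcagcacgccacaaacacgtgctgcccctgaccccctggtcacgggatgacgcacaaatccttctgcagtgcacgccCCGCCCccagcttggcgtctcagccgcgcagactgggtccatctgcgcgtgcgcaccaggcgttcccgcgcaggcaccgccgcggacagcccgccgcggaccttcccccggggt
The 6 letters were found 2 times for Ccdc85b, 4 times for Rprml (3 of them overlapping in 1 run) and 1 time for Tomm20. Of the 93 rises, 67 had a promoter in the table and 52 of these held the motif (77.6%), against 64.8% of the promoters of all genes tested in excitatory neurons and 35.9% of all 27025 promoters. In the rises of inhibitory neurons the share was 68.3% of 41 promoters, against 66.5% of all genes tested there. It was 66.7% of 12 in mature oligodendrocytes (against 66.6%), 87.5% of 8 in endothelial cells (67.2%) and 100% of 3 in precursors (65.4%). These shares are a description of letters in a window. Among other named genes, Atxn7l3b held 2 copies, Nrgn 1, and Trappc6b and Cck 0.

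Genes that rose, and those that fell in inhibitory neurons, had shorter transcripts than the genes tested. The median transcript of the 93 rises had 1871 bases (interquartile range 1409 to 2536) and a GC content of 55.3%, against 3036 bases (1922 to 4486) and 50.3% over the tested genes with a transcript. The same order was seen for the rises in inhibitory neurons, with 1646 against 3077 bases, in endothelial cells, with 1681 against 3106 bases, and in mature oligodendrocytes, with 1587 against 2882 bases. The 18 falls in inhibitory neurons had a median of 1794 bases (interquartile range 855 to 2526), so short transcripts were not particular to rises. The part of length or GC content in these differences was not tested.

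The next genes were Nrgn, Cck and Rab3a, which the study names for withdrawal, the dopamine receptor gene Drd1a, and Rtn1, Fth1 and Chchd2, which its tables list for many clusters. Nrgn encodes neurogranin, a calmodulin-binding protein of dendrites, and was at 2049, 1727, 779 and 1183 CPM in libraries 9 to 12. It rose by 0.99 ± 0.20 (edgeR adjusted p = 0.046), with both saline libraries below both cocaine libraries. Cck, the precursor of the neuropeptide cholecystokinin, was at 3733 and 3127 CPM with cocaine but at 458 CPM in saline library 11 and 1681 CPM in saline library 12. Its log2 difference of 1.72 ± 0.55 was larger than that of Nrgn and missed the threshold (adjusted p = 0.40), with the saline libraries far apart. Of the 8 earlier libraries, the highest had 949 CPM of Cck, so both cocaine libraries and library 12 were outside that range and library 11 was within it.

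Rab3a, a GTPase of synaptic vesicles, was at 2612, 2589, 1283 and 2053 CPM in libraries 9 to 12 (log2 difference 0.69 ± 0.22, adjusted p = 0.33). Rtn1, a reticulon of the endoplasmic reticulum, was at 6315, 5840, 3400 and 4954 CPM (0.58 ± 0.17, adjusted p = 0.17), and Fth1, the ferritin heavy chain, at 4842, 4811, 2819 and 4309 CPM (0.48 ± 0.18, adjusted p = 0.42). In all 3 genes library 12 was nearer to the cocaine libraries than to library 11. Chchd2, a mitochondrial protein, was at 2061, 2029, 1618 and 1982 CPM (0.23 ± 0.14, adjusted p = 1.00). The dopamine receptor gene Drd1a was low, at 5.04 and 6.24 CPM with cocaine and 6.92 and 7.18 CPM with saline, and its log2 difference was -0.28 ± 0.23 (adjusted p = 1.00).

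Within the 26 excitatory clusters of the authors the test was run on each cluster, without libraries of under 10 cells of that cluster. The fits held from 7 libraries (Exc_18) to 12. In some clusters, Exc_18 among them, an earlier group had no library left, so the spread was estimated over fewer than 6 groups. It called 2278 of 185795 pairs of gene and cluster (1.23%), of which 2240 were rises (1.21%) and 38 were falls (0.0205%). DESeq2 called 311 pairs, and the count was 699, 1135, 372 and 4800 pairs without library 9, 10, 11 and 12. Clusters share their 4 libraries and are not replicates of each other. They are the finer clusters of the authors, whereas the paper tested cocaine on single cells of its broader clusters. Cluster numbers and counts given here are thus not those of the paper's test. Between 2 genes (Exc_26) and 143 genes (Exc_14) were called per cluster, and 388 genes were called in at least 1. Of these, 126 were called in a single cluster, 86 in at least 10 and 20 in at least 20, and 0 genes rose in 1 cluster and fell in another.

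Called in most clusters were Ccdc85b and Rprml (25 of 26) and Tomm20 and Atxn7l3b (24 of 26). Trappc6b followed with 23 of 26, a count shared by Gde1, Tmem66, Mrfap1 and Mlf2, and is described here because it had the largest summed log2 difference of these 5. Atxn7l3b is a paralogue of a subunit of the SAGA deubiquitinase, and Trappc6b belongs to the TRAPP complex of vesicle tethering. Over all excitatory neurons Atxn7l3b was at 486, 405, 149 and 252 CPM in libraries 9 to 12 (1.196 ± 0.195, adjusted p = 0.022) and Trappc6b at 164, 140, 50.9 and 80.4 CPM (1.26 ± 0.21, adjusted p = 0.022). Ccdc85b, Rprml, Tomm20, Atxn7l3b and Trappc6b were each higher with cocaine in 26 of 26 clusters, with median log2 differences of 1.74 for Ccdc85b, 1.39 for Rprml, 1.39 for Tomm20, 1.25 for Atxn7l3b and 1.26 for Trappc6b. Library 12 was above library 11 in 25 or 26 clusters for each. These 5 genes were picked for their calls in clusters, which nearly fixes the number of clusters in which they were higher.

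Nrgn was called in 20 clusters, Rab3a in 9, Rtn1 in 5, Cck in 4, Fth1 in 1 and Chchd2 in 0, and each of these genes was higher with cocaine in 26 of 26 clusters. The clusters share their libraries, so a shift of 1 library can give the same direction in all of them. The share of all genes with the same direction in 26 of 26 is not given here. Cck had a median log2 difference of 1.72 over clusters, from 1.55 in Exc_2 to 3.01 in Exc_18. Exc_18 is among the clusters with little Cck, at 321 and 355 CPM in the cocaine and 44.3 and 36.2 CPM in the saline libraries, against 3539, 3225, 561 and 1784 CPM in Exc_2. Library 12 was above library 11 in 23 of 26 clusters, and below it in 3 of the 4 in which Cck was called (Exc_18, Exc_20 and Exc_21, but not Exc_26). The fits of Exc_18, Exc_20 and Exc_26 held only 7, 8 and 8 libraries. Drd1a passed the filter on low counts in 6 clusters, was called in 0 and was higher with cocaine in 2. The falls in clusters came from 28 genes, among them Ptgds, a prostaglandin synthase made by oligodendrocytes, which fell in 4 clusters. Others were 4 haemoglobin genes and Fos, Btg2, Gadd45g, Scg2, Nppc and Eno2, each in 1 cluster. Levels of oligodendrocyte markers are given with the inhibitory neurons.

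The saline libraries were also compared cell by cell. Exc_10, the cluster with the most cells at 15 days (697), had 265, 148, 168 and 116 cells in libraries 9, 10, 11 and 12. Per 10000 UMIs of a cell, the median Cck count there was 37.9 and 30.6 with cocaine, 4.16 in library 11 and 16.6 in library 12. Of the cells of library 12, 93.1% lay above the 90th percentile of library 11 for Cck (7.73 per 10000), 47.4% for Nrgn, 41.4% for Atxn7l3b and 16.4% for Tomm20. The median Nrgn count was 28.8, 26.3, 11.2 and 17.7 per 10000 UMIs in the same order of libraries.

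**Figure D2:**
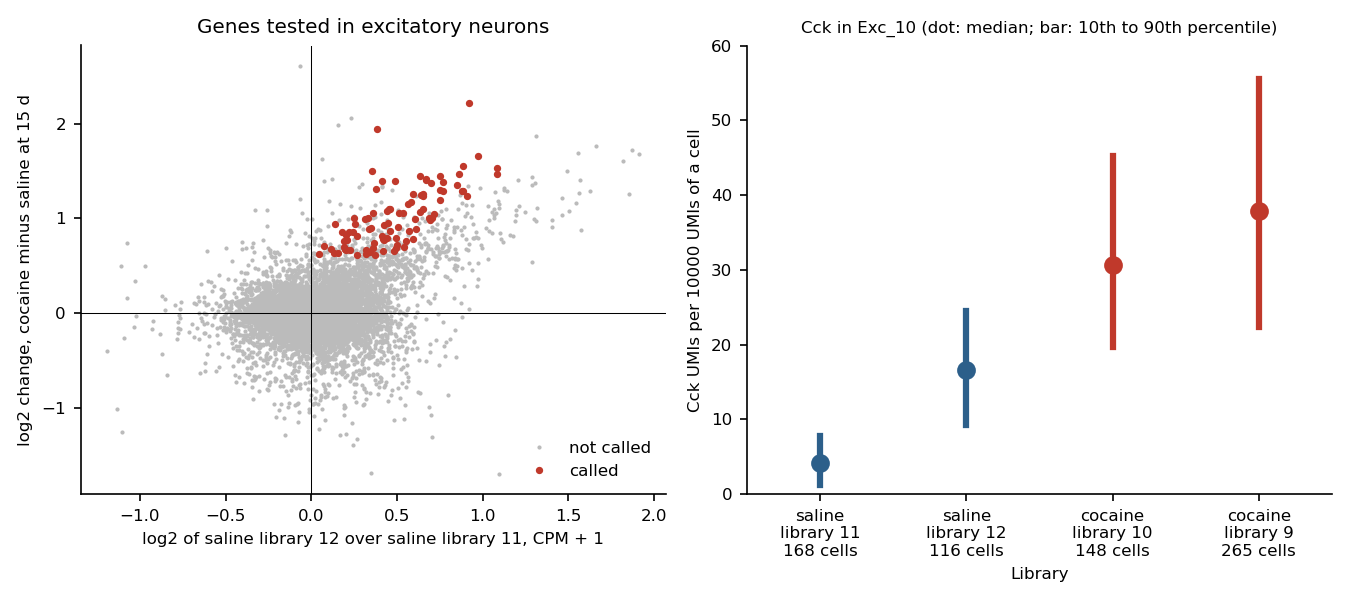
Left, the log2 ratio of saline library 12 to saline library 11 against the log2 difference of cocaine and saline for genes in excitatory neurons. Right, Cck UMIs per 10000 UMIs of a cell in cluster Exc_10, with the median and the 10th to 90th percentiles of each library: the median is 4.16 in library 11, 16.6 in library 12, and 30.6 and 37.9 in the cocaine libraries.

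Lists of genes for neuronal function are given beside the share of all genes called in excitatory neurons, 0.706%, and the 903 of 13171 genes at an unadjusted p below 0.05. With so few calls, the counts do not set a list apart from other genes. Of 79 genes tested from the respiratory chain and ATP synthase, 1 rose and 0 fell, with list medians between -0.05 and 0.01 on the log2 scale beside -0.01 over all genes. The riser was Uqcrfs1, the Rieske protein of complex III, at 110, 95.2, 46.6 and 58.9 CPM in libraries 9 to 12 (1.01 ± 0.15, edgeR adjusted p = 0.019). Cox5a, a subunit of complex IV, was at 708, 632, 97.1 and 309 CPM, and missed the threshold with a log2 difference of 1.77 ± 0.56 (adjusted p = 0.40). Of the 79 genes, 35 were higher with cocaine.

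Of 127 genes tested for glutamate and GABA receptors, potassium channels, vesicle release, endocytosis and synaptic adhesion, 0 were called and 54 were higher with cocaine, with medians of the 8 lists between -0.13 and 0.01. At an unadjusted p below 0.05 edgeR had 6 of these genes, and DESeq2 called 1. Grin2a, an NMDA receptor subunit with the lowest p of its list, was at 67.6, 70.4, 25.7 and 54.4 CPM in libraries 9 to 12 (0.84 ± 0.35, adjusted p = 0.65). In the list for dopamine signalling 0 of 10 genes were called (1 at an unadjusted p below 0.05 by edgeR and 1 called by DESeq2), and Ppp1r1b, the dopamine-regulated phosphatase inhibitor DARPP-32, was at 33.5, 44.3, 20.1 and 20.2 CPM (1.00 ± 0.28, adjusted p = 0.22). In the list for immediate early genes, which follow neuronal activity, 0 of 23 were called (4 at an unadjusted p below 0.05 by edgeR and 1 called by DESeq2). Ier5 was at 41.8, 37.1, 25.03 and 24.58 CPM (0.71 ± 0.19, adjusted p = 0.13). In the list for plasticity and calmodulin 1 of 15 rose (Nrgn). Over 36 lists with 497 places for tested genes, these were the 2 calls in excitatory neurons as a whole. In the fits of single clusters, 121 rises and 14 falls fell on 9075 pairs of a list member and a cluster (1.49%), beside 1.23% of all pairs of a gene and a cluster. The 5 lists of the respiratory chain and ATP synthase had 33 rises and 0 falls among 2054 pairs (1.61%), all in complex III, where Uqcrfs1 rose in 17 and Cyc1, another of its subunits, in 16 of 26 clusters. The other 4 of these lists had 0 calls. The 8 lists for receptors, channels, vesicle release, endocytosis and adhesion had 21 rises and 0 falls among 2750 pairs (0.764%), which were Grin2a and Rab3a in 9 clusters each and Clta, a clathrin light chain, in 3. Ppp1r1b rose in 8 of 21 clusters, and the other genes for dopamine signalling were called in 0. Immediate early genes had 13 rises and 2 falls among 415 pairs (3.61%), from 6 of 22 genes, with Junb called in the most clusters (7 of 26). Cyc1, Clta and Junb were named after their values were seen.

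Gabbr1, a GABA-B receptor subunit, was among the 93 rises and is in none of these lists. It was named after its values were seen: 546 and 503 CPM with cocaine and 313 and 390 CPM with saline (0.62 ± 0.12, edgeR adjusted p = 0.022).

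Inhibitory neurons, with 711 cells, had rises and falls. Of 8687 genes tested, 54 rose (0.622%) and 18 fell (0.207%, 0.829% in both directions), with 534 genes at an unadjusted p below 0.05. DESeq2 called 5 rises and 4 falls, 8 of them among the 72. Saline library 12 lay above library 11 for 53 of the 54 rises, against 47.7% of all genes tested. Without library 9, 10, 11 or 12 the rises numbered 1, 10, 2 and 115 and the falls 2, 8, 9 and 8.

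The largest rise was that of Med9, a subunit of the Mediator complex of transcription, at 44.6, 40.9, 7.92 and 12.99 CPM in libraries 9 to 12 (2.097 ± 0.319, edgeR adjusted p = 3.5e-04). Ccdc85b followed, at 77.8, 68.5, 15.2 and 20.98 CPM (2.06 ± 0.25, adjusted p = 1.7e-05), and Fbxl15 and H2afx rose by 1.76 and 1.62. For both genes the cocaine libraries lay clear of the 8 earlier libraries, while the saline libraries did not. Crh encodes corticotropin-releasing hormone, a stress peptide that a subset of cortical interneurons makes. It was at 42.5 and 35.9 CPM with cocaine and at 14.6 and 7.99 CPM with saline (1.72 ± 0.35, adjusted p = 0.0078), the only rise with library 12 below library 11. The 8 earlier libraries ranged from 0 to 53.7 CPM for Crh, so the cocaine values lay within their range. Nrgn rose by 1.10, from 140 and 171 CPM with saline to 343 and 316 CPM with cocaine (adjusted p = 0.023). It was no lower in astrocytes (421, 516, 255 and 182 CPM in libraries 9 to 12) or microglia (429, 484, 267 and 292 CPM). The part of RNA from excitatory neurons in this rise was not tested.

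Genes that fell in inhibitory neurons included markers of other cell types. Ly6c1 and Ly6a, surface proteins of endothelial cells, were at 27.2 and 36.7 CPM and at 26.7 and 24.2 CPM in cocaine libraries 9 and 10, and at 91.4 and 170 CPM and at 77.4 and 122 CPM in saline libraries 11 and 12 (log2 changes of -2.01 ± 0.26 and -1.92 ± 0.24). Flt1, a receptor for vascular endothelial growth factor, fell by 1.79 on the log2 scale. Both saline libraries lay above both cocaine libraries for these genes, as for 20.1% of all genes tested, beside 16.7% with the reverse order. Ptgds was at 37.6, 50.9, 121 and 162 CPM in libraries 9 to 12 (-1.68 ± 0.24, edgeR adjusted p = 3.5e-04), and Cnp and Cldn11, both of oligodendrocytes, fell by 1.305 and 1.79. By the rule for the largest falls, Ifitm3 (-2.46), Trf, the iron carrier transferrin that oligodendrocytes make (-2.41), Pglyrp1 (-2.34) and Fxyd5 (-2.15) were also named. Ifitm3 was at 3.81, 10.9, 37.8 and 37.97 CPM in libraries 9 to 12, and the 8 earlier libraries ranged from 0 to 14.2 CPM. Ifitm3, Pglyrp1 and Fxyd5 were far higher in endothelial cells of these 4 libraries, at 1575 to 2247, 1534 to 1679 and 559 to 678 CPM. They were not called there.

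Summed markers had the same order as these falls. Cnp and Flt1, which are such markers, are themselves among the falls. No sums without the called genes are given, so the sums are not separate from the falls. A list of 7 markers of mature oligodendrocytes summed to 72.4 and 79.3 CPM in the inhibitory neurons of the cocaine libraries and to 166 and 260 CPM in those of saline libraries 11 and 12, and the 8 endothelial markers to 76.2, 88.5, 209 and 322 CPM. In astrocytes the oligodendrocyte markers summed to 174 and 93.5 CPM with cocaine and 246 and 267 CPM with saline, and in excitatory neurons to 84.1, 81.4, 112 and 112 CPM. In their own classes the groups overlapped for Cnp and Flt1 but not for every marker, with Cnp at 10982, 10355, 9721 and 10430 CPM in mature oligodendrocytes and Flt1 at 2471, 2599, 2696 and 2495 CPM in endothelial cells of libraries 9 to 12. Cldn5, a claudin of the blood-brain barrier and an endothelial marker, was at 4228, 3429, 1096 and 2460 CPM in endothelial cells, with library 12 again between library 11 and the cocaine libraries, and was not called (log2 difference 1.09 ± 0.49, edgeR adjusted p = 1.00). The inhibitory markers Gad1, Gad2 and others summed to between 21255 and 24292 CPM in inhibitory neurons with no separation of the groups. The part of RNA from other cell types in the falls was not tested.

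**Figure D3:**
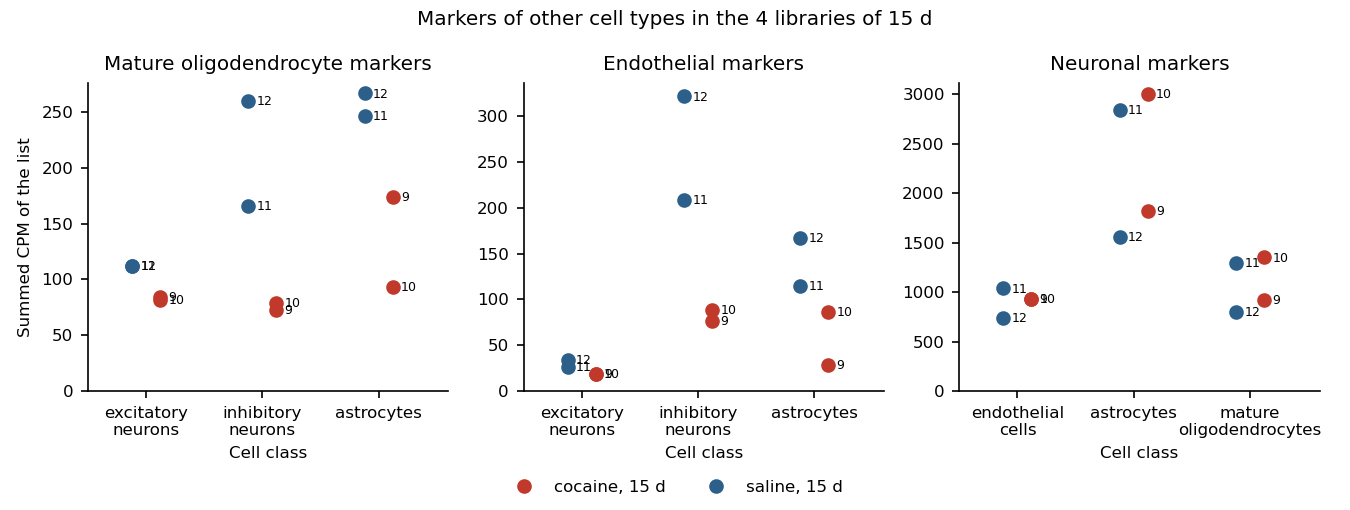
Summed CPM of marker lists for oligodendrocytes, endothelial cells and neurons in the classes of cells, with 1 point per library of 15 days. In inhibitory neurons the oligodendrocyte markers reach 72.4 and 79.3 CPM with cocaine and 166 and 260 CPM with saline.

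Astrocytes (643 cells) had 0 rises and 1 fall among 7415 genes by edgeR (0.0135%). At an unadjusted p below 0.05 there were 322 genes, and DESeq2 called 0. Microglia (241 cells) had 0 calls among 5209 genes (0.0%) by edgeR, 214 at an unadjusted p below 0.05 and 0 by DESeq2. On data simulated with 200 genes changed 2-fold, the test found 82% of them in excitatory neurons, 48.5% in inhibitory neurons, 43.5% in endothelial cells, 31.5% in astrocytes and 6% in microglia, so few changes of that size could have been seen in microglia.

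Endothelial cells (1610 cells) had 14 rises and 0 falls among 10057 genes (0.139%), with 479 genes at an unadjusted p below 0.05, and DESeq2 called 12 rises and 0 falls, with 6 of the 14 among them. The largest by rule were Dnlz (1.68), 2310036O22Rik (1.66), Pop5, a subunit of RNase P (1.302), 1190002H23Rik (1.25) and Fam176b (1.21). The gene 2310036O22Rik was at 179, 183, 39.6 and 74.9 CPM in libraries 9 to 12 (1.66 ± 0.25, adjusted p = 0.018). Library 12 was above library 11 for 14 of the 14, against 37.2% of all genes tested. Without library 9 or 11 the count was 0, without library 10 it was 3 and without library 12 it was 131.

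Mature oligodendrocytes (581 cells) had 17 rises and 0 falls among 6437 genes (0.264%), with 381 genes at an unadjusted p below 0.05 and 1 rise by DESeq2. Cck had the largest rise, from 50.02 and 96.8 CPM with saline to 311 and 327 CPM with cocaine (2.17 ± 0.23, edgeR adjusted p = 1.8e-07), and the 8 earlier libraries had 5.02 to 22.5 CPM. Markers of any neuron summed to 925, 1352, 1293 and 804 CPM in these cells in libraries 9 to 12, an order that did not separate the groups. The rise of Cck was not particular to oligodendrocytes. Without being called, Cck was at 892, 494, 126 and 248 CPM in astrocytes of libraries 9 to 12. It was at 1163, 561, 78.3 and 309 CPM in microglia and at 311, 187, 39.1 and 108 CPM in endothelial cells. In precursors the groups overlapped (354, 148, 125 and 222 CPM). The level of Cck in excitatory neurons moved with that in oligodendrocytes, and the part of neuronal RNA was not tested. Tomm20 (1.92), 2310036O22Rik (1.87), Sdf2l1, a cofactor of chaperones in the endoplasmic reticulum (1.84), and Rab11a, a GTPase of recycling endosomes (1.60), also rose. Sdf2l1 was at 61.0 and 81.0 CPM with cocaine, within the 29.2 to 83.6 CPM of the earlier libraries, and at 16.3 and 24.6 CPM with saline, below that range. Without library 9, 10, 11 or 12 there were 3, 11, 2 and 98 rises.

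Oligodendrocyte precursors (194 cells) had 5 rises among 5900 genes (0.0847%), with 249 at an unadjusted p below 0.05 and 0 calls by DESeq2: 2310036O22Rik, Cox5a, 1190002H23Rik, Atxn7l3b and Mrfap1, between 1.12 and 2.05 on the log2 scale. Newly formed oligodendrocytes (209 cells) had 2 rises among 3617 genes (0.0553%), Snf8, a subunit of the ESCRT-II sorting complex (2.59 ± 0.49, edgeR adjusted p = 0.046), and Mrfap1 (1.25 ± 0.25, adjusted p = 0.0499). DESeq2 called 0 rises and 2 falls there. Library 12 was above library 11 for all 7 rises of these 2 classes. Of these, 0 of 5 in precursors and 0 of 2 in newly formed oligodendrocytes were called without library 9, without library 10 or without library 11, and all were called without library 12. With mitochondrial and ribosomal protein genes kept, 0 genes were called in newly formed oligodendrocytes.

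The 8 classes were set side by side. They share the 4 libraries and are not independent of each other, and the share of all genes higher in 8 of 8 is not given here. Of 134 genes that rose in at least 1 of the 8 classes, 37 rose in at least 2, 11 in at least 3, 3 in at least 4 and 0 in 5. The 3 genes were Atxn7l3b, Mrfap1 and Snf8, all higher with cocaine in 8 of 8 classes, with log2 differences of 0.72 to 1.29, 0.63 to 1.25 and 1.16 to 2.59. Tomm20 rose in 3 classes and was higher in 8 of 8 (1.24 to 1.92). Cox5a was higher in 8 of 8 classes (1.48 to 1.81) and passed the test in 1, and Cck was higher in 8 of 8 (0.60 to 2.17) and passed in 1.

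**Figure D4:**
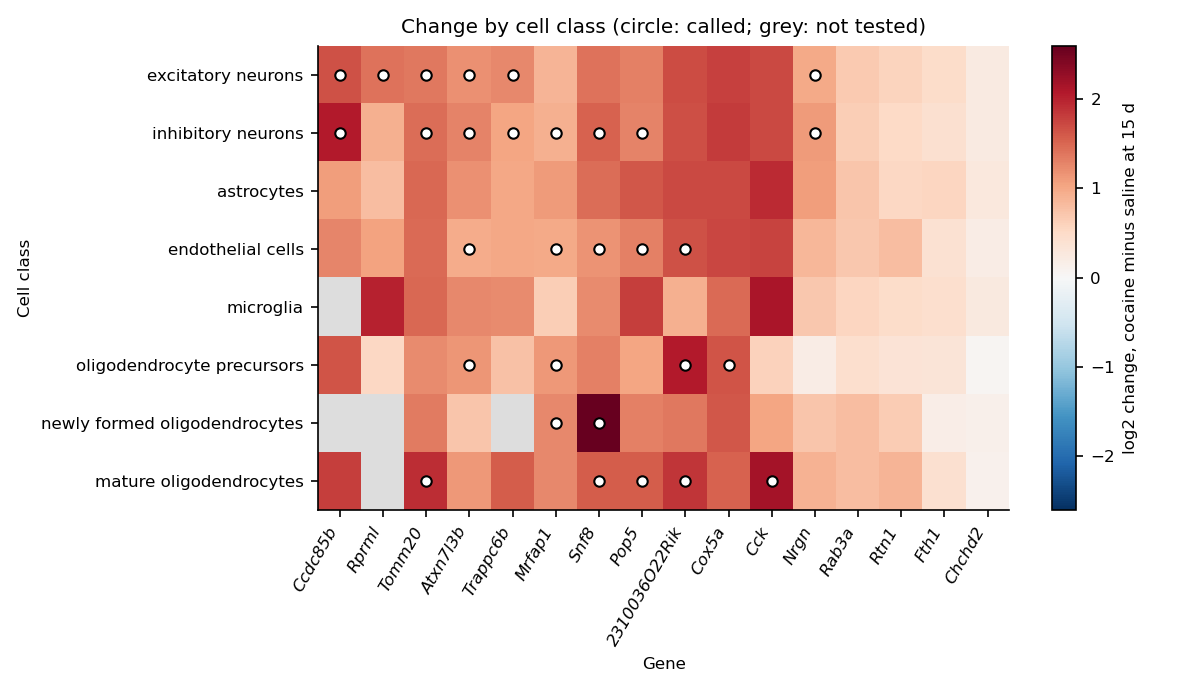
Log2 difference of cocaine and saline at 15 days for 16 genes in the 8 classes of cells, with a circle where the gene was called and grey where it was not tested. Tomm20, Atxn7l3b, Mrfap1, Snf8, Cox5a and Cck are higher with cocaine in 8 of 8 classes.

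The number of calls depended on which libraries were fitted, and the classes differed in this. Leaving out library 11 ended all calls in excitatory neurons and endothelial cells, while in astrocytes it gave 6 rises and 9 falls. In a fit of the 4 libraries of 15 days alone, excitatory neurons had 11 rises and 1 fall, inhibitory neurons 81 and 37, endothelial cells 0 and 0, and mature oligodendrocytes 50 and 3. Of the calls reported, that fit kept 8 of 93 in excitatory and 56 of 72 in inhibitory neurons. It kept 0 of 14 in endothelial cells and 17 of 17 in mature oligodendrocytes.

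**Figure D5:**
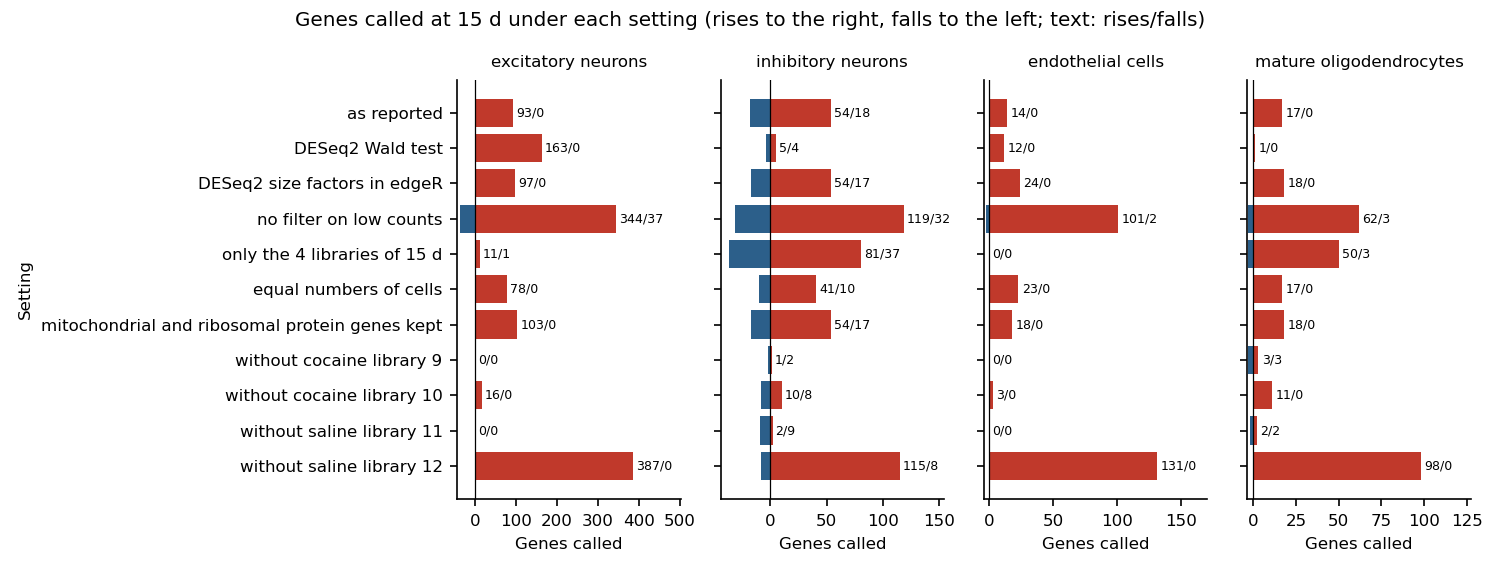
Number of genes that rose or fell in excitatory neurons, inhibitory neurons, endothelial cells and mature oligodendrocytes under each setting of the analysis. In excitatory neurons the rises number 93 as reported, 0 without library 9 or library 11, and 387 without library 12.

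Shares of cell classes were compared over libraries with an exact permutation test, in which 2 against 2 libraries cannot go below p = 0.333 (two-sided). Excitatory neurons made up 71.0% and 73.8% of the cells of the cocaine libraries and 67.4% and 55.5% of those of the saline libraries, with means of 72.4% ± 2.00 and 61.4% ± 8.48 (SD, n = 2 libraries each, exact p = 0.333). Astrocytes made up 4.26% and 1.87% with cocaine and 5.52% and 8.84% with saline (exact p = 0.333), and mature oligodendrocytes 2.85% and 4.601% against 5.60% and 5.14% (exact p = 0.333). In these 3 classes the groups did not overlap, which gives the smallest p the design allows. As a share of neurons, excitatory neurons were at 92.3% and 93.7% with cocaine and 92.6% and 90.6% with saline, so that the groups overlapped (difference 1.41 percentage points, exact p = 0.667). As a share of non-neuronal cells, mature oligodendrocytes were at 12.3% and 21.7% with cocaine and 20.6% and 13.2% with saline, so that the groups overlapped (exact p = 1.00). Endothelial cells on that scale were at 49.4% and 53.3% with cocaine and 43.6% and 41.9% with saline (exact p = 0.333), the opposite direction to their share of all cells. Newly formed oligodendrocytes turned in the same way, at 6.57% and 7.22% of non-neuronal cells with cocaine and 5.84% and 4.92% with saline (exact p = 0.333). Inhibitory neurons made up 5.91% and 4.94% against 5.39% and 5.73% (exact p = 1.00). Microglia made up 1.68% and 1.23% against 1.43% and 3.54% (exact p = 0.667), with library 12 apart from the others. Newly formed oligodendrocytes (1.52% and 1.53% against 1.59% and 1.91%), endothelial cells (11.4% and 11.3% against 11.8% and 16.3%) and precursors (1.38% and 0.68% against 1.19% and 3.11%) had exact p of 0.333, 0.333 and 0.667.

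Whether the effect of cocaine at 15 days differed from that at maintenance and 48 h was tested as an interaction. In inhibitory neurons 2 genes passed (0.023% of 8687), among them Atxn7l3b, and in the other 7 classes 0 genes passed by edgeR (996 in excitatory neurons and 160 to 469 in the other 6 at an unadjusted p below 0.05). DESeq2 found 41 in excitatory neurons and 0 in the 7 other classes. The times differ in depth as well as in withdrawal, so a difference between times cannot be told apart from a difference between sets of libraries.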

How the data were processed

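Single-cell RNA sequencing of adult mouse PFC was analysed in 12 libraries of 6 groups, of which the 4 libraries of 15 days of withdrawal were compared and the other 8 entered the fit. The authors aligned reads to mm9 (NCBIM37, Ensembl annotation) and counted UMIs with Cell Ranger, and clustered cells with Seurat 2.1.0. The deposited values are raw UMI counts per gene and cell, and the deposited cell table gives class, cluster and the mitochondrial share of each cell as a fraction. Libraries of P21 mice were not used. Cells and doublets were taken as the authors filtered them, and no doublet caller was run. Genes were taken from the deposited matrices and filtered as given below, not by the gene filter of the authors.

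Counts were added up per library and class (cluster name without its number), and libraries with under 10 cells of a class were left out, which removed library 3 for astrocytes, oligodendrocyte precursors and newly formed oligodendrocytes. The same floor of 10 cells held for excitatory clusters, whose fits had 7 to 12 libraries and in some clusters lacked an earlier group. For 27 cells at 15 days the class column differs from the cluster. Without the 13 mitochondrial and 143 ribosomal protein genes, 25989 of 26145 genes remained. CPM are UMIs over the total of these genes. Counts were tested in R 4.3.3 with edgeR 4.0.16 (filterByExpr, TMM, robust quasi-likelihood fit, 1 mean for each of the 6 groups), with Benjamini-Hochberg adjustment and calls at an adjusted p below 0.05 and over 1.5-fold. Shares were compared by exact permutation. DESeq2 1.42.0, other size factors, no filter, the 4 libraries alone, equal numbers of cells per library, mitochondrial and ribosomal protein genes kept, and leaving out each library were alternatives. Counts were read with numpy 2.4.6 and pandas 2.3.3 in python 3.11.15, with scipy 1.17.1 for permutations. Tests were checked on simulated counts with 200 changed genes. Gene positions are from the GENCODE annotation of NCBIM37, and promoters from RefSeq (GRCm38.p6).

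The comparison, the 37 pathway lists, the 12 marker lists and the rule for named genes were chosen with earlier results of these data known. The rule names the 10 largest rises and falls in excitatory neurons and 5 in other classes (called, groups not overlapping, at least 10 CPM in the higher group and 50 UMIs), called members of lists, the members with the lowest p as examples, Nrgn, Cck, Rab3a and Drd1a from the text of the study, Rtn1, Fth1 and Chchd2 as genes that its tables list for most clusters, the 3 largest interactions in each direction, and the 5 genes called in most clusters, with ties ordered by the summed log2 difference. A gene outside the rule is said to be named after its values were seen. A gene that the rule and 2 lists pick is not reported here, nor counted in the sums of those lists.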

Additional observations from a re-analysis of the deposited data

Results flagged for a closer look

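Atxn7l3b in inhibitory neurons differed between times: the effect of cocaine at 15 days minus the mean of that at maintenance and 48 h was 1.32 ± 0.24 on the log2 scale (SE, edgeR adjusted p = 0.025). It was at 670 and 574 CPM in the cocaine and 204 and 310 CPM in the saline libraries of 15 days, and at 166 to 247 CPM in the 8 earlier libraries. Saline library 12 was above all 8 and library 11 was within their range. The difference was not called with DESeq2 (adjusted p = 0.064), nor by edgeR without library 9 (adjusted p = 0.88), without library 10 (0.12) or without library 11 (0.35). It was called without library 12 (adjusted p = 0.0021).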

How the results depend on the processing

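Of the values of named genes under the alternatives, 296 kept their side of the threshold, 163 lost it, 9 gained it and 0 changed direction. With DESeq2 in place of edgeR the calls numbered 163 in excitatory neurons, 9 in inhibitory neurons, 0 in astrocytes, 0 in oligodendrocyte precursors, 1 in mature oligodendrocytes and 311 pairs in excitatory clusters, and the differences between times 41 in excitatory and 0 in inhibitory neurons. With DESeq2 size factors in edgeR there were 2 in astrocytes and 24 in endothelial cells. With no filter on low counts the calls were 381 in excitatory neurons, 151 in inhibitory neurons, 42 in astrocytes, 103 in endothelial cells, 6 in microglia, 3 in precursors, 24 in newly formed and 65 in mature oligodendrocytes, and the differences between times 321, 20, 6, 35, 6 and 2 in excitatory neurons, inhibitory neurons, astrocytes, endothelial cells, microglia and newly formed oligodendrocytes. In the 4 libraries alone the calls were 12, 118, 0, 0, 0, 14 and 53 in excitatory neurons, inhibitory neurons, astrocytes, endothelial cells, precursors, newly formed and mature oligodendrocytes. With equal numbers of cells they were 5 in astrocytes, 23 in endothelial cells, 0 in precursors, 5 in newly formed oligodendrocytes and 1325 pairs in clusters, and with mitochondrial and ribosomal protein genes kept 0 in newly formed oligodendrocytes. Leaving out 1 library at a time gave 0 to 387 calls in excitatory neurons, 3 to 123 in inhibitory neurons, 0 to 80 in astrocytes, 0 to 131 in endothelial cells, 0 to 9 in microglia, 0 to 33 in precursors, 0 to 28 in newly formed and 4 to 98 in mature oligodendrocytes, and 372 to 4800 pairs in clusters, with the highest count each time without library 12. The differences between times then numbered 0 to 222, 0 to 26, 0 to 8, 0 to 47, 0 to 5, 0 to 4, 0 to 1 and 0 to 16 in the same order of classes. As a share of neurons, cocaine minus saline was 1.41 percentage points for excitatory and -1.41 for inhibitory neurons, and as a share of non-neuronal cells -7.92 for astrocytes, 8.59 for endothelial cells, 1.52 for newly formed and 0.0699 for mature oligodendrocytes, 3 classes that were lower with cocaine among all cells (-2.70, -0.22 and -1.65). The cause of these shifts was not tested. No paired analysis was possible because the labels give no replicate numbers that groups share. Simulated 2-fold changes were found at 4.5% in precursors, 6% in microglia and 17% in newly formed oligodendrocytes, against 82% in excitatory neurons. False calls numbered 0, 0, 6 and 11 in the same order. They numbered 13 in astrocytes, 10 in inhibitory neurons, 7 in endothelial cells and 5 in mature oligodendrocytes. There 31.5%, 48.5%, 43.5% and 32% of the 200 changed genes were found. Precursors, microglia, newly formed oligodendrocytes and excitatory neurons differ in cell number and in the spread between libraries (biological coefficient of variation 0.185, 0.208, 0.180 and 0.0999). The part of depth alone was not tested.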

Other observations

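With mitochondrial and ribosomal protein genes kept in the fit of excitatory neurons, 0 of 12 mitochondrial genes and 0 of 113 ribosomal protein genes tested were called by edgeR, with median log2 differences of -0.04 and 0.00. Haemoglobin and other red blood cell genes differed widely between libraries, with 79473, 36814, 54566 and 80681 CPM in the endothelial cells of libraries 9, 10, 11 and 12, where the groups overlapped. In astrocytes they were at 20951 and 22308 CPM with cocaine and 11190 and 10899 CPM with saline, a difference that separated the groups, although 0 of the 4 genes tested were called by edgeR.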
